A study of Eurytemora affinis with 18 samples.

Results

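Male Eurytemora affinis kept for 72 h at a nominal 50 µg/L of tebufenozide (TEB) were compared with males kept at a nominal 0.5 µg/L, using 3 libraries per dose and thus 6 of the 18 RNA-seq libraries of the study. By the study's account, each library was made from a pool of 30 whole adults of 1 sex of this estuarine copepod. Both groups had TEB added to the water in acetone, and the male solvent controls (3 libraries), which had acetone alone, are given beside the comparison. Doses are given as nominal throughout. By the study's water measurements, TEB was far below the nominal value at 50 µg/L. At 0.5 µg/L it was below the limit of quantification, which lay close to the nominal value. The remaining 9 libraries are from females under the same 3 conditions. The 6 libraries were taken by the sex, dose and replicate in their labels, and the counts covered 23728 genes. A pool of whole animals cannot tell fewer cells of a type from less RNA per cell.

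TEB is an insecticide of the moult-accelerating kind, which binds the ecdysone receptor in place of the moulting hormone 20-hydroxyecdysone. In insects the activated receptor switches on early genes, such as broad-complex and E74, whose products are transcription factors for later genes of cuticle, muscle and gamete formation. Copepods do not moult as adults, and in crustaceans methyl farnesoate, an unepoxidised form of insect juvenile hormone, also acts on moult and reproduction. Heat shock proteins, glutathione S-transferases and cytochromes P450 are the usual cellular responses to toxicants.

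Before the comparison, the libraries were checked for their sex and their sequencing run. Counts on genes ranged from 6945417 to 8660828 at 0.5 µg/L and from 3882407 to 8181508 at 50 µg/L. A set of 180 genes high in female controls and nearly silent in at least 1 male control (female-high genes) marked female animals or eggs. Its median level was 0.23, 21 and 20.8% of that of female controls in 0.5 µg/L replicates 1, 2 and 3, against 0.0295, 0.05 and 0.111% in the 50 µg/L replicates. Male controls 2 and 3, at 32.2 and 45%, also carried RNA of these genes. Control 1 was at 0.00134%, a value that the rule for the list keeps low (0.812% with a limit of 5% in place of 1%). A set of 361 genes with the reverse pattern (male-high genes) had no member at 0 counts in any male library. All 6 thus held male RNA, but this check cannot tell a pool of males from a pool mixed with females or eggs. By the prefix of their column labels, all 3 libraries at 0.5 µg/L and the controls were assigned to a High Output flow cell with 75 bp reads. All 3 at 50 µg/L were assigned to a Mid Output flow cell with 150 bp reads. Dose and flow cell thus cannot be told apart in males. The only group with both flow cells was females at 0.5 µg/L (replicate 3 on Mid Output), and the difference of that library from the mean of replicates 1 and 2 is given below as the flow cell difference.

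**Figure D1:**
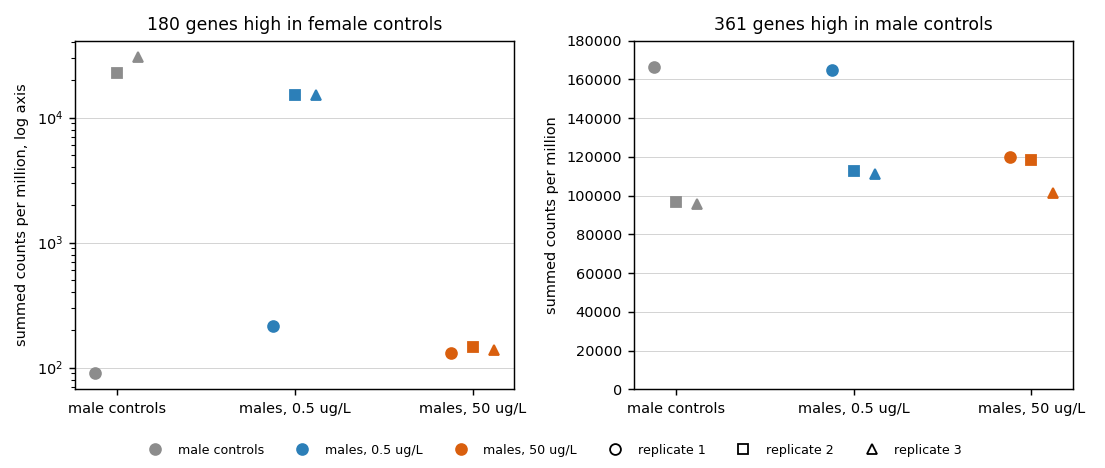
Summed level of 180 female-high genes (left, log axis) and 361 male-high genes (right) in each of the 9 male libraries, in CPM (counts scaled to library size), with colour for the group and symbol for the replicate. The female-high sum was 15125 and 15015 in 0.5 µg/L replicates 2 and 3 and between 131.9 and 145.27 at 50 µg/L, while the male-high sum was higher in 0.5 µg/L replicate 1 (164980) than in the 50 µg/L libraries (101290 to 120210).

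Between the doses, 17 of 17492 genes tested (0.0972%) passed the test of edgeR (quasi-likelihood; p adjusted by Benjamini-Hochberg not above 0.05, and at least a 2-fold change), with 8 genes higher at 50 µg/L (0.0457%) and 9 lower (0.0515%). The genes with a known product that rose code for a small heat shock protein, an alpha-tubulin, an adhesion protein of neurons, a mitochondrial chaperone, a calcium-binding protein and a vesicle SNARE. Those that fell include 2 myosin heavy chains and another alpha-tubulin, and 5 of the 9 are uncharacterized. By DESeq2, 387 genes passed the same thresholds, 163 higher (0.932%) and 224 lower (1.28%), and these contained all 17. At an unadjusted p below 0.05 the quasi-likelihood test gave 2548 genes. The groups did not overlap in 2499 genes higher (14.3%) and 2013 genes lower (11.5%) at 50 µg/L. Levels are given below as CPM (scaled to library size with TMM factors within each sex) in replicates 1, 2 and 3, and differences as log2 fold changes of 50 minus 0.5 µg/L with their standard error (SE). Male and female libraries were not scaled together, so that levels set side by side between the sexes are approximate.

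LOC111696339, an uncharacterized gene, had the largest rise of the 8. It was at 33.9, 25.2 and 19 CPM at 0.5 µg/L and at 144, 149.5 and 82.5 CPM at 50 µg/L, a log2 fold change of 2.27 (SE 0.29, adjusted p = 0.0161). The lowest library at 50 µg/L was replicate 3, yet it lay above all 3 libraries at 0.5 µg/L and above the male controls (33.6, 34.2 and 41.9 CPM). Another uncharacterized gene, LOC111711903, had 44.6, 26.2 and 25.7 CPM at the lower and 132, 126 and 81.6 CPM at the higher dose (log2 fold change 1.81, SE 0.30, adjusted p = 0.0475), again with replicate 3 lowest at 50 µg/L.

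LOC111708628, an irregular chiasm C-roughest protein-like gene, codes for a relative of a Drosophila immunoglobulin-type adhesion protein that guides axons and takes part in cell death in the developing eye. Its level was 8.63, 9.02 and 6.89 CPM at 0.5 µg/L and 32.9, 32.6 and 28.9 CPM at 50 µg/L (log2 fold change 1.94, SE 0.32, adjusted p = 0.0475). The 3 libraries at 50 µg/L were close to each other, and the male controls (5.44, 9.42 and 8.77 CPM) lay with the lower dose. The heat shock protein beta-1-like gene LOC111708726 codes for a small heat shock protein, a kind that holds unfolded proteins in solution. It was at 68.6, 55.1 and 60.1 CPM at 0.5 µg/L and 262, 247 and 114 CPM at 50 µg/L (log2 fold change 1.76, SE 0.29, adjusted p = 0.0475). Replicate 3 at 50 µg/L was nearer to the lower dose than replicates 1 and 2, without overlap.

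LOC111709132 (tubulin alpha-3 chain-like), a subunit of microtubules, had 71.9, 62.4 and 71.4 CPM at 0.5 µg/L against 234, 193 and 174 CPM at 50 µg/L (log2 fold change 1.54, SE 0.22, adjusted p = 0.0268). LOC111714068 (probable mitochondrial chaperone BCS1-A) is related to a yeast protein of the inner membrane that helps to assemble a respiratory complex. It rose from 54.03, 38.7 and 39.1 CPM to 141, 142 and 101 CPM (log2 fold change 1.54, SE 0.24, adjusted p = 0.0387). The peflin-like gene LOC111702875, for a calcium-binding EF-hand protein, rose from 69.01, 53.8 and 52.1 CPM to 123, 125 and 141 CPM (log2 fold change 1.15, SE 0.19, adjusted p = 0.0475). LOC111694756 (BET1-like protein), by its name a SNARE of vesicle transport, rose from 45.3, 54.1 and 47.1 CPM to 99.7, 118 and 103 CPM (log2 fold change 1.13, SE 0.19, adjusted p = 0.0475). In each of these 4 genes the doses did not overlap.

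The largest fall was that of LOC111712298, an uncharacterized gene with 0 counts in all 9 female libraries. It was at 17.3, 10.3 and 11 CPM at 0.5 µg/L and 0.217, 0.544 and 0.124 CPM at 50 µg/L (log2 fold change -5.57, SE 0.70, adjusted p = 0.0161). These are 300 against 4 counts in all, a 51.1-fold ratio with an exact 95% interval of 19.8 to 189 for counting error alone. All 3 male controls (14.7, 6.04 and 4.49 CPM) lay above all 3 libraries at 50 µg/L. LOC111706298, also uncharacterized, had 29.2, 23.6 and 24.6 CPM at 0.5 µg/L and 8.23, 3.53 and 6.18 CPM at 50 µg/L (log2 fold change -2.09, SE 0.34, adjusted p = 0.0463), with controls at 20.2, 22.6 and 23.1 CPM.

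Myosin heavy chain is the motor of the thick filament of muscle, and 2 of the genes that fell carry this name. LOC111711689 was at 104, 81.9 and 83.6 CPM at 0.5 µg/L and 24.5, 20.7 and 19.9 CPM at 50 µg/L (log2 fold change -2.05, SE 0.26, adjusted p = 0.0161). LOC111711716, a much weaker gene, was at 8.93, 11.3 and 8.33 CPM and 1.300, 1.36 and 1.61 CPM (log2 fold change -2.71, SE 0.39, adjusted p = 0.0268), which are 229 against 24 counts (ratio 6.504, interval 4.26 to 10.4). LOC111703978 (tubulin alpha-1 chain-like) had 9.08, 8.19 and 4.78 CPM at the lower and 0.433, 0 and 0.371 CPM at the higher dose (log2 fold change -4.55, SE 0.70, adjusted p = 0.0387). It rested on 172 against 5 counts (ratio 23.4, interval 9.86 to 73.1). Myosin heavy chains and alpha-tubulins are families of close copies, and how reads were split between copies is uncertain, with reads of unequal length at the 2 doses.

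Of the other 4 falls, only 1 has a product known by name. LOC111717198 (protein PXR1-like), related to a yeast nucleolar protein of ribosomal RNA maturation, fell from 39.7, 35.8 and 39.2 CPM to 12.8, 12.8 and 11.1 CPM (log2 fold change -1.65, SE 0.25, adjusted p = 0.0379). The uncharacterized genes LOC111712963, LOC111709138 and LOC111712203 had log2 fold changes of -1.73, -2.28 and -2.39, with adjusted p of 0.0268, 0.0387 and 0.0387. Of these, LOC111712963 was the most abundant, at 129, 118 and 121 CPM at 0.5 µg/L and 44.2, 31.8 and 34.9 CPM at 50 µg/L.

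**Figure D2:**
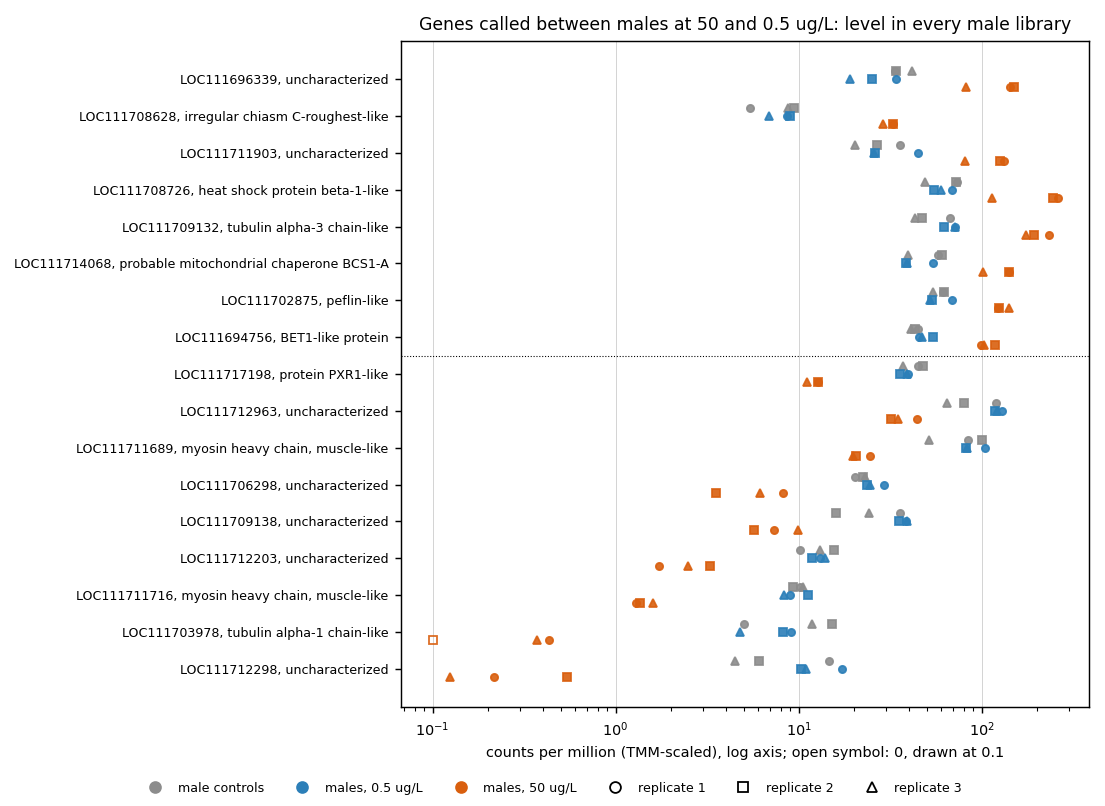
Level of the 17 called genes in each of the 9 male libraries, in CPM on a log axis, with colour for the group and symbol for the replicate; the 8 genes above the dotted line were higher and the 9 below it lower at 50 µg/L. The 3 libraries at 50 µg/L lie outside the range of the 3 at 0.5 µg/L for every gene, and tubulin alpha-1 chain-like LOC111703978 had 0 counts in 50 µg/L replicate 2.

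Most of the genes that fell, and none of those that rose, differed at least 2-fold between the flow cells in females. Of the 9 that fell, 7 (77.8%) were at least 2-fold lower in the Mid Output library than in the High Output libraries of females at 0.5 µg/L, against 3.01% of all genes tested. In these females LOC111711689 was at 21.9 and 18.5 CPM on High Output and 5.44 CPM on Mid Output, and the females at 50 µg/L, all on Mid Output, were at 6.79, 3.83 and 5.66 CPM. LOC111703978 had 23.5 and 27.97 CPM on High Output, 1.98 CPM on Mid Output and 2.98, 1.86 and 3.99 CPM in females at 50 µg/L. For both genes the female Mid Output library at 0.5 µg/L thus lay near the female libraries at 50 µg/L. The exceptions were LOC111706298, with 21.6 and 18.5 CPM on High Output and 17.6 CPM on Mid Output, and LOC111712298, which no female library counted. None of the 8 genes that rose had a 2-fold flow cell difference, and their log2 differences lay between -0.38 (LOC111708628) and 0.57 (LOC111694756), with a median of 0.22. Smaller differences were present. In these females LOC111694756 was at 60.5 and 62.8 CPM on High Output and 91.9 CPM on Mid Output, and its log2 fold change in males was 1.13.

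With flow cell as a covariate over all 18 libraries, a fit that rests on this 1 female library, no gene passed the test, and 1009 had an unadjusted p below 0.05. All 8 rises kept their direction, with a median log2 fold change of 1.47 against 1.65 before. LOC111708628 was at 2.36 and LOC111708726 at 2.12, while LOC111696339 went to 1.71, LOC111709132 to 1.11 and LOC111694756 to 0.56. Of the 9 falls, 5 kept theirs, and their median over the 9 went from -2.28 to -0.15. LOC111706298 was at -1.90, whereas LOC111711689 went to -0.15 and LOC111712963, LOC111709138, LOC111712203 and LOC111711716 turned positive (0.21, 0.90, 0.048 and 0.25). LOC111712298, with 0 counts in all female libraries, could not be adjusted by this fit.

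**Figure D3:**
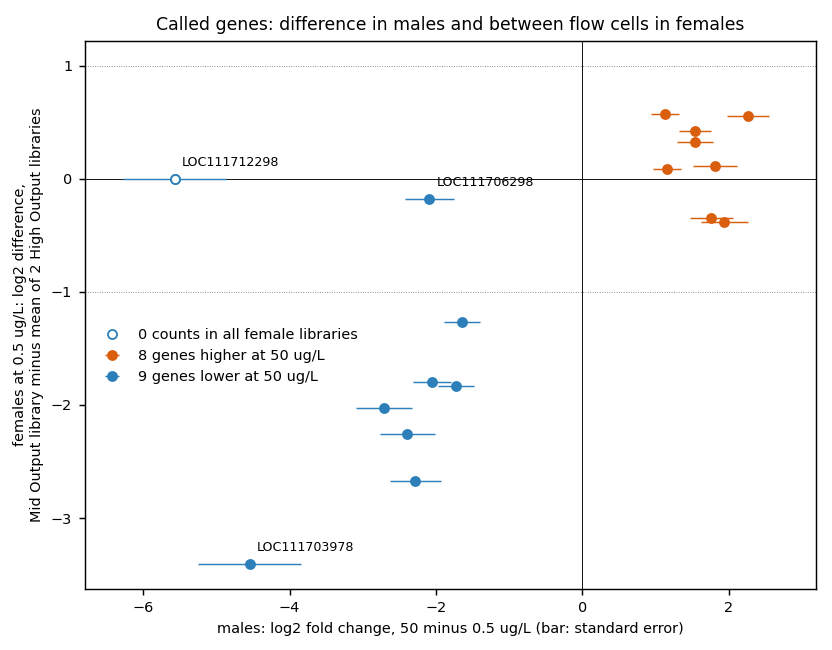
For the 17 called genes, the log2 fold change in males between 50 and 0.5 µg/L (x axis, bar for the standard error) against the log2 difference between the 1 Mid Output and the mean of the 2 High Output libraries of females at 0.5 µg/L (y axis). Of the 9 genes that fell, 7 lie below -1 on the y axis, and the 8 that rose lie between -0.38 and 0.57.

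The 17 genes were next compared with female RNA taken out. Against 0.5 µg/L replicate 1 alone, the library nearly free of it, the medians were 1.36 for the 8 rises and -2.36 for the 9 falls (1.65 and -2.28 against all 3 replicates). The direction of each was fixed beforehand, as the doses did not overlap in any of the 17, and no gene passed a test that has 1 library in a group (881 at an unadjusted p below 0.05). After subtraction of the estimated female RNA, 16 of the 17 were still called, and LOC111703978, which is higher in female than in male controls, was at -3.97 (adjusted p = 0.12). With 1 library left out, the quasi-likelihood test called 0 genes without 0.5 µg/L replicate 2 or 3 or without 50 µg/L replicate 1 or 2, 2 without 50 µg/L replicate 3 (LOC111696339 and LOC111708726) and 31 without 0.5 µg/L replicate 1, with 13 of the 17 among them. At an unadjusted p below 0.05 the fits without a call had between 1360 and 1794 genes.

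Gene groups were taken by name from the 1434 genes that the tables of the study name, of which 1426 were tested. These tables hold genes that the study called in its own comparisons, among them the males at 50 µg/L used here, so a direction of a list is not independent evidence. Of the 1426 genes, DESeq2 called 118 higher and 161 lower, and their median log2 fold change was -0.81, against -0.02 over all 17492 genes. Over all 17492 genes, DESeq2 called 0.932% higher and 1.28% lower, and 14.3% were higher and 11.5% lower without overlap. The counts of each list below are to be read beside these shares.

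Among 9 heat shock genes, 1 rose by the quasi-likelihood test and none fell, and DESeq2 called 6 higher and none lower, with a median log2 fold change of 2.09. These 6 are LOC111708726 and 5 heat shock 70 kDa protein 1-like genes, which code for chaperones that refold damaged proteins and are induced by stress. LOC111707610 was at 31.5, 14.6 and 7.33 CPM at 0.5 µg/L and 140.4, 154 and 62.5 CPM at 50 µg/L, a log2 fold change of 2.75 (SE 0.52, adjusted p = 0.0912, by DESeq2 8.85e-06). LOC111717003 was at 27.4, 7.72 and 12.7 CPM and 119, 105 and 53.3 CPM (log2 fold change 2.54, SE 0.47, adjusted p = 0.0813, by DESeq2 2.3e-05). LOC111717007 had 7.11, 2.37 and 0.556 CPM and 42.7, 51.9 and 18.7 CPM (log2 fold change 3.52, SE 0.75, adjusted p = 0.127, by DESeq2 3.14e-05). In these 3 genes replicate 1 was the highest library at 0.5 µg/L and replicate 3 the lowest at 50 µg/L, and the male controls of LOC111707610 (15.9, 24.7 and 11.96 CPM) lay in the range of the lower dose. The other 2 of the 5, LOC111711805 and LOC111704938, had log2 fold changes of 2.24 and 2.09. Against 0.5 µg/L replicate 1 alone the median of the 9 was 1.55. Of the other 3 members, which neither tool called, heat shock protein beta-1-like LOC111712531 had a log2 fold change of 1.18, and 2 were below 0. Heat shock protein 83-like LOC111707609, a chaperone of the HSP90 family, was at 6.21, 7.95 and 7.22 CPM at 0.5 µg/L and 3.25, 4.08 and 2.84 CPM at 50 µg/L (log2 fold change -1.09, adjusted p = 0.284), lower without overlap and with a flow cell difference of -1.95. The heat shock 70 kDa protein-like gene LOC111711631 was at 4.24, 75.7 and 59.9 CPM at 0.5 µg/L and 6.28, 9.79 and 6.93 CPM at 50 µg/L (log2 fold change -2.62, adjusted p = 0.389), and at 6.003, 52.2 and 121 CPM in the male controls, so that it was high in the 4 male libraries that hold RNA of female genes. These copies may share reads, so that single values are uncertain. The flow cell difference of the 5 in females ran from -0.72 to 0.33.

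Enzymes of detoxification had 12 members, none called by the quasi-likelihood test and 4 called higher by DESeq2, with a median of 0.90. The cytochrome P450 2C31-like gene LOC111698334, for an oxidase of foreign compounds, was at 3.48, 2.73 and 4.22 CPM at 0.5 µg/L and 13.9, 12.5 and 18.1 CPM at 50 µg/L (log2 fold change 2.09, SE 0.47, adjusted p = 0.133, by DESeq2 0.002). LOC111698532 (glutathione S-transferase 1-like), an abundant enzyme that joins toxicants to glutathione, had 400.5, 268 and 284 CPM and 672, 656 and 594 CPM (log2 fold change 1.01, SE 0.22, adjusted p = 0.123, by DESeq2 0.00232). LOC111699961 (carboxylesterase 5A-like) had 20.9, 13.7 and 16 CPM and 47.2, 36.2 and 63.2 CPM (log2 fold change 1.54, SE 0.35, adjusted p = 0.133, by DESeq2 0.00266). The doses did not overlap in 9 genes higher and 1 lower of the 12, against 14.3 and 11.5% of all genes tested. The 1 lower was esterase FE4-like LOC111715882 (3.94, 12.8 and 8.67 CPM and 1.95, 2.17 and 3.22 CPM). Against replicate 1 alone the median was 0.64.

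Neurotransmission, the larger list, had 9 of 26 members called higher by DESeq2, against 6 of 9 heat shock genes and 4 of 12 detoxification genes. None of the 26 was called lower, and none was called by the quasi-likelihood test. The median log2 fold change was 1.21, and 0.95 against 0.5 µg/L replicate 1 alone. Without overlap, 21 of the 26 were higher, against 14.3% of all genes tested. Among the transporters that clear GABA or related transmitters from the synapse, LOC111704195 (GABA transporter 3-like) was at 8.02, 5.58 and 6.33 CPM at 0.5 µg/L and 29.5, 21.2 and 43.8 CPM at 50 µg/L (log2 fold change 2.25, SE 0.46, adjusted p = 0.104, by DESeq2 0.00035). LOC111711043 (GABA transporter ine-like) had 1.66, 2.37 and 2.33 CPM and 6.93, 10.9 and 9.27 CPM (log2 fold change 2.07, SE 0.47, adjusted p = 0.133, by DESeq2 0.00495). The innexin shaking-B-like gene LOC111718086 codes for a gap junction protein, in Drosophila that of electrical synapses of the escape circuit. It had 0.908, 1.54 and 0.889 CPM at 0.5 µg/L and 5.199, 7.34 and 10.4 CPM at 50 µg/L (log2 fold change 2.76, SE 0.57, adjusted p = 0.109, by DESeq2 0.00144). In these 3 genes no library at 0.5 µg/L reached the lowest at 50 µg/L. Of the receptors and the release machinery, acetylcholine receptor subunit alpha-like LOC111695263 (1.92), the calcium sensors of vesicle release synaptotagmin-1-like LOC111703377 (2.42) and synaptotagmin 1-like LOC111708680 (1.30), NMDA receptor subunit 1-like LOC111715709 (1.28), dopamine transporter-like LOC111705348 (1.44) and acetylcholinesterase-like LOC111696990 (1.20) were also called by DESeq2, with the log2 fold changes in brackets, and are named because they were called. Of the 3 members below 0, dopamine transporter-like LOC111697080 (3.63, 37.5 and 36.2 CPM and 1.52, 4.62 and 4.205 CPM) and inx2-like LOC111695314 (4.54, 15.8 and 26.2 CPM and 2.82, 3.53 and 2.102 CPM) were high in 0.5 µg/L replicates 2 and 3, and higher still in male controls 2 and 3 (male controls at 4.33, 69.4 and 61.6 CPM and 3.21, 54.6 and 50.2 CPM).

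**Figure D4:**
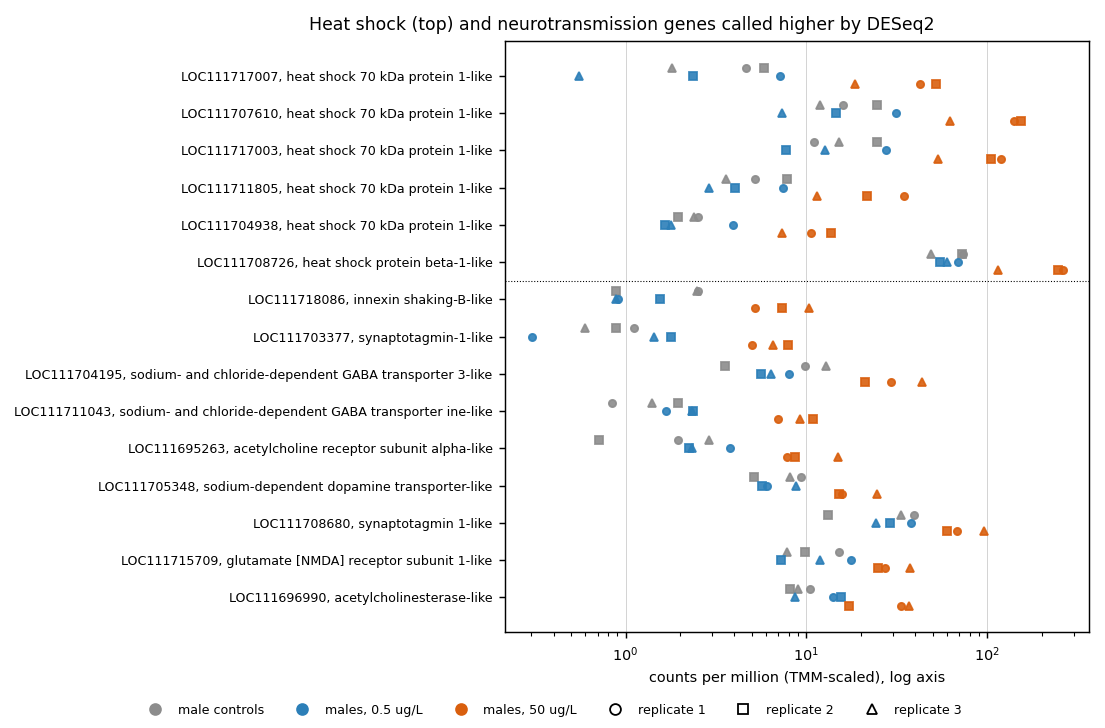
Level of the 6 heat shock genes (above the dotted line) and 9 neurotransmission genes that DESeq2 called higher at 50 µg/L, in each of the 9 male libraries, in CPM on a log axis. The libraries at 50 µg/L lie to the right of those at 0.5 µg/L for each gene, and in the heat shock genes replicate 3 is the lowest of the 3 libraries at 50 µg/L.

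Muscle genes were called in both directions by DESeq2. Of 16 members, 13 were higher at 50 µg/L without overlap and 2, the myosin heavy chains LOC111711689 and LOC111711716, lower (14.3 and 11.5% of all genes tested). The median was 0.79 (0.68 against replicate 1 alone). DESeq2 called 2 higher. Another myosin heavy chain, LOC111715464, was at 79.2, 52.9 and 57.2 CPM at 0.5 µg/L and 141, 125 and 239.8 CPM at 50 µg/L (log2 fold change 1.42, SE 0.27, adjusted p = 0.0813, by DESeq2 0.000582), with a flow cell difference in females of -0.14. The calpain clp-1-like gene LOC111697494, for a calcium-dependent protease, was at 2.42, 2.14 and 5.000 CPM and 6.93, 11.4 and 16.1 CPM (log2 fold change 1.84, adjusted p = 0.214). The most abundant member, myosin regulatory light chain 2-like LOC111708305, had 744, 696 and 638 CPM and 1350.1, 1206 and 1112 CPM (log2 fold change 0.82, adjusted p = 0.28), and the 5 actin genes lay between 0.48 and 1.04.

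Genes of the axoneme, of microtubules and of intraflagellar transport had 21 members, with 1 rise (LOC111709132) and 1 fall (LOC111703978) by the quasi-likelihood test, 4 higher and 2 lower by DESeq2 and a median of 0.92 (0.53 against replicate 1 alone). Tubulin alpha-1 chain-like LOC111697806 was at 287, 235 and 208 CPM at 0.5 µg/L and 526, 455 and 423 CPM at 50 µg/L (log2 fold change 0.94, adjusted p = 0.214). Of the transport genes, IFT172 homolog LOC111705728 had 8.93, 3.92 and 6.44 CPM and 20.6, 15.8 and 18.4 CPM (log2 fold change 1.51, adjusted p = 0.214). The axoneme-associated mst101(2)-like gene LOC111695653 was the second of the 2 that DESeq2 called lower, at 9.99, 479 and 483 CPM and 7.799, 19.03 and 9.399 CPM, and its replicate 1 at 0.5 µg/L lay in the range of 50 µg/L.

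The hormone axis held few calls. None of 4 ecdysone early genes was called by either tool, and their median was -0.95, but 0.20 against replicate 1 alone. The broad-complex gene LOC111704351 was at 7.42, 41.2 and 31.6 CPM at 0.5 µg/L and 7.15, 12.2 and 9.03 CPM at 50 µg/L (log2 fold change -1.51, SE 0.57, adjusted p = 0.295). LOC111694963 had 25.4, 83.6 and 69.6 CPM and 35.3, 20.7 and 28.7 CPM (adjusted p = 0.311), and LOC111709681 had 107, 184 and 189 CPM and 94.02, 90.8 and 87.2 CPM (adjusted p = 0.299). In the first 2 of these 3 broad-complex genes, 0.5 µg/L replicate 1 lay in the range of 50 µg/L, and replicates 2 and 3 stood above both. The fourth, ecdysone-induced protein 74EF-like LOC111704069, was higher without overlap (16.8, 17.2 and 13.7 CPM and 23.8, 30.99 and 39.3 CPM, log2 fold change 0.98, adjusted p = 0.332), with a flow cell difference of -1.24. Methyl farnesoate epoxidase-like LOC111717477, in insects the enzyme that makes juvenile hormone from methyl farnesoate, was at 8.78, 3.44 and 4.78 CPM at 0.5 µg/L and 29.2, 23.9 and 33.5 CPM at 50 µg/L (log2 fold change 2.36, SE 0.44, adjusted p = 0.0746, by DESeq2 2.87e-05). It did not pass the main test, and in females it was 1.22 higher on the log2 scale in the Mid Output library; with flow cell as a covariate its value was 0.81.

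Several cuticle genes and mucins were uneven within 0.5 µg/L. Of 7 cuticle and chitin genes, DESeq2 called 1 lower, cuticle protein 7-like LOC111698563, a structural protein of the exoskeleton, at 151, 898 and 948 CPM at 0.5 µg/L and 44.8, 85.9 and 92.1 CPM at 50 µg/L (log2 fold change -3.16, SE 0.95, adjusted p = 0.271, by DESeq2 0.0205). Its male controls (258, 322 and 40.98 CPM) were uneven too, and its flow cell difference was -2.93. The list median was -0.78, 0.10 against replicate 1 alone and 0.72 with flow cell as a covariate. Endochitinase A-like LOC111697179, which cleaves chitin, had 33.9, 88.6 and 92.6 CPM and 37.5, 38.1 and 36.7 CPM (adjusted p = 0.31). Of 8 mucins, which line the gut and other surfaces, 5 were lower without overlap (11.5% of all genes tested) and 1 was called lower by DESeq2 (median -0.98, and -0.85 against replicate 1 alone). This was mucin-17-like LOC111700935, at 2.42, 100.4 and 101 CPM and 0.217, 0.816 and 0.989 CPM (adjusted p = 0.309, by DESeq2 0.00426). Mucin-5AC-like LOC111699105 (8.78, 82.3 and 78 CPM and 13.6, 9.24 and 12 CPM, adjusted p = 0.352) was also low in 0.5 µg/L replicate 1, where it lay below the libraries at 50 µg/L. Another mucin-5AC-like gene, LOC111710342, was at 76.3, 94.7 and 93.2 CPM and 44.4, 40.5 and 45.3 CPM (log2 fold change -1.02, SE 0.28, adjusted p = 0.214), with a flow cell difference of -0.07. Integumentary mucin C.1-like LOC111711799 was at 306, 355 and 376 CPM and 172, 167 and 163 CPM (log2 fold change -1.05, adjusted p = 0.265), with a flow cell difference of -1.21. Of 6 digestive and moult proteases none was called, and trypsin-1-like LOC111703434 had 5.15, 6.29 and 7.56 CPM and 15.6, 12.2 and 13.9 CPM (log2 fold change 1.13, adjusted p = 0.244). Of 3 neprilysin-type peptidases none was called, and the median was 0.57, or 0.04 against replicate 1 alone.

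Few genes of dividing and germ line cells were called. Of 37 cell cycle and DNA replication genes, none was called by the quasi-likelihood test and 2 were called lower by DESeq2, cyclin-B2-like LOC111706711 and cyclin-B3-like LOC111716562. The median was -0.97, 0.12 against replicate 1 alone and -0.11 after subtraction of the estimated female RNA. In 36 of the 37, replicate 1 at 0.5 µg/L was nearer to the mean at 50 µg/L than to that of replicates 2 and 3, and in 36 the female control mean was at least 2-fold above replicate 1, against 59.1 and 33.3% of all genes tested. Aurora kinase-like LOC111710640, a kinase of mitosis, was at 5.45, 28.1 and 23.7 CPM at 0.5 µg/L and 5.199, 4.62 and 5.07 CPM at 50 µg/L (adjusted p = 0.269). Of 10 DNA and histone modification genes none was called, with 9 below 0 and medians of -0.92 and, against replicate 1 alone, 0.12. DNA (cytosine-5)-methyltransferase 1-like LOC111700762, which copies methyl marks after replication, was at 6.51, 33.7 and 29.4 CPM and 10.2, 7.07 and 8.29 CPM (adjusted p = 0.302). The member above 0, the histone-lysine N-methyltransferase gene LOC111712022, was at 5.75, 1.31 and 1.89 CPM and 13, 8.16 and 9.52 CPM, higher without overlap (log2 fold change 1.80, adjusted p = 0.254), and at 0.78 against replicate 1 alone.

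The median log2 fold change over the 9 DNA repair genes was -0.94, and -0.32 against replicate 1 alone.

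Of 8 genes of yolk, egg and germ line, 1 was called lower by DESeq2, exuperantia-1-like LOC111705270, in Drosophila a protein of mRNA localisation in germ cells, at 13.5, 44.8 and 36.7 CPM at 0.5 µg/L and 11.05, 4.08 and 11.4 CPM at 50 µg/L (log2 fold change -1.82, SE 0.59, adjusted p = 0.267, by DESeq2 0.0403). The yolk precursor gene vitellogenin-like LOC111704362 was at 0, 6.05 and 6.44 CPM and 0, 0 and 0.247 CPM (adjusted p = 0.336), so that it was counted at 0.5 µg/L only in the libraries that hold RNA of female genes. Vasa-like LOC111702462, a helicase of germ cells, had 15.7, 94.96 and 93.3 CPM and 10.8, 8.43 and 13.5 CPM (adjusted p = 0.285). Tudor domain-containing 5-like LOC111711047 (13.9, 27.1 and 20.9 CPM and 6.07, 5.98 and 10.5 CPM) and zonadhesin-like LOC111716440 (45.3, 70.6 and 63.6 CPM and 25.6, 33.4 and 20.7 CPM) were lower in all 3 libraries at 50 µg/L than in replicate 1 also, and neither was called (adjusted p = 0.267 and 0.235). The list median was -1.56, and -0.60 against replicate 1 alone.

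Of 4 vision genes, LOC111708628 rose and none fell, and the median was 0.06 (1.25 against replicate 1 alone). Its relative LOC111699563 was at 13.2, 8.67 and 8.44 CPM at 0.5 µg/L and 24.05, 24.2 and 18.3 CPM at 50 µg/L (log2 fold change 1.14, adjusted p = 0.247), without overlap. Chaoptin-like LOC111695981, in Drosophila an adhesion protein of photoreceptors, was at 1.36, 30.03 and 28.6 CPM and 7.799, 2.45 and 4.45 CPM (adjusted p = 0.496), with male controls at 2.79, 49.8 and 60.7 CPM.

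Immunity had 7 members, of which DESeq2 called 3 lower (median -2.56, and -0.43 against replicate 1 alone). Phenoloxidase 2-like LOC111716773, an enzyme of melanin formation, was at 1.82, 57.3 and 86.9 CPM at 0.5 µg/L and 0.217, 0.544 and 0.495 CPM at 50 µg/L (adjusted p = 0.313, by DESeq2 0.00414), and its female control mean was 438 CPM. Hemocyanin F chain-like LOC111698228, of a family of oxygen carriers related to phenoloxidases, was also high in 0.5 µg/L replicates 2 and 3, with 1.66, 88.7 and 92.8 CPM and 2.17, 0.816 and 1.48 CPM (adjusted p = 0.318, by DESeq2 0.0173). Serpin B10-like LOC111700682, a protease inhibitor by its name, was different in that it was absent from female controls. It was at 132, 68.6 and 66.3 CPM at 0.5 µg/L and 29.7, 41.1 and 26.7 CPM at 50 µg/L (log2 fold change -1.46, SE 0.34, adjusted p = 0.144, by DESeq2 0.00722), so that the highest of the 6 was replicate 1. The female-high genes themselves had 177 members tested, of which DESeq2 called 52 lower and none higher, with a median of -6.01, and -0.26 against replicate 1 alone.

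**Figure D5:**
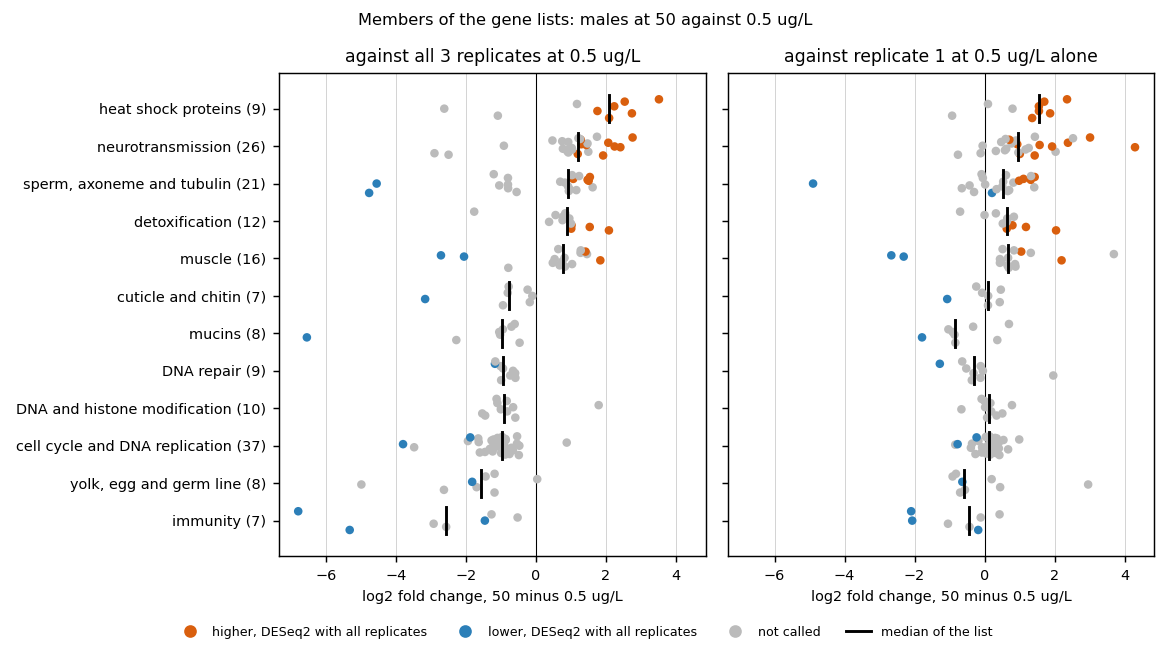
Log2 fold change of 50 minus 0.5 µg/L for each member of 12 gene lists (number of members in brackets), against all 3 replicates at 0.5 µg/L (left) and against replicate 1 alone (right), with a black bar at the median. The medians of heat shock, neurotransmission, detoxification, muscle and axoneme genes stay above 0 on the right, between 0.53 and 1.55, whereas that of cell cycle genes goes from -0.97 to 0.12.

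Over the 224 genes that DESeq2 called lower, 151 (67.4%) had a female control mean above 0.5 µg/L replicate 1, against 47.3% of all genes, and 37 (16.5%) were at least 2-fold lower in the Mid Output library of females, against 3.01% of all genes. Of the 163 called higher, 17 (10.4%) and 4 (2.45%) had these properties. Replicate 1 lay nearer to the 50 µg/L mean than to that of replicates 2 and 3 in 16 (9.82%) of the 163. The same held for 105 (46.9%) of the 224 and for 59.1% of all genes. Replicate 1 was itself among the libraries that made these calls, which favours low shares among called genes. The shares of called genes thus cannot test the calls against that of all genes. The part of female RNA and of the flow cell in single calls was not tested beyond the values above.

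Among genes that DESeq2 alone called, the 4 largest negative changes in genes whose level in female controls was not above replicate 1 and that are in none of the pathway groups above were those of LOC111706344, endoglucanase 7-like LOC111712358, LOC111712059 and LOC111715388. LOC111706344, uncharacterized and one of the male-high genes, was at 65.7, 24.1 and 24.3 CPM at 0.5 µg/L and 6.28, 4.35 and 1.61 CPM at 50 µg/L (log2 fold change -3.26, SE 0.62, adjusted p = 0.0868, by DESeq2 7.26e-06). LOC111712059, also uncharacterized, was at 14.8, 4.87 and 8.44 CPM and 1.08, 1.09 and 0.989 CPM (log2 fold change -3.14, adjusted p = 0.0738). Neither was counted at any level in the female controls, as was the case for LOC111712298. Endoglucanase 7-like LOC111712358, for an enzyme that cleaves cellulose-type chains, had 7.57, 9.73 and 7.44 CPM and 1.08, 1.36 and 0.371 CPM (log2 fold change -3.24, adjusted p = 0.0866) and a flow cell difference of -2.08. Of the largest positive changes, the uncharacterized LOC111717258 was at 2.12, 0.594 and 2.56 CPM and 12.1, 10.6 and 14.5 CPM (log2 fold change 2.82, SE 0.54, adjusted p = 0.0865). The 5.8S ribosomal RNA gene LOC111718184 was at 10.9, 10.2 and 9.89 CPM and 38.8, 37.5 and 38.7 CPM (log2 fold change 1.89, adjusted p = 0.0609), with a flow cell difference of 1.42, and at 0.39 with flow cell as a covariate.

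The 361 male-high genes were uneven between the doses. Against all 3 replicates at 0.5 µg/L their median log2 fold change was -0.28. Without overlap, 85 were lower and 31 higher (11.5 and 14.3% of all genes tested). DESeq2 called 23 lower and 1 higher (1.28 and 0.932% of all genes tested). Against replicate 1 alone the median was -0.81, after subtraction of the estimated female RNA -0.56, without replicate 1 0.05, and with flow cell as a covariate 0.26. As these genes are near 0 in females, no female library shows their flow cell difference.

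The study's list of genes of interest for males, chosen on males at 50 µg/L and thus no independent evidence, held 69 genes, all tested. By the quasi-likelihood test 1 rose (LOC111708628) and 2 fell (LOC111711689 and LOC111711716), and DESeq2 called 14 higher and 5 lower, with a median of 0.57. The groups did not overlap in 32 genes higher and 15 lower. Of all genes tested, DESeq2 called 0.932% higher and 1.28% lower, and 14.3% were higher and 11.5% lower without overlap.

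The same contrast was set against that in females. By the quasi-likelihood test no gene of 18110 differed between the sexes in its change from 0.5 to 50 µg/L (2165 at an unadjusted p below 0.05), while the likelihood ratio test called 89 and DESeq2 136 (0.751%), 15 with a more positive change in males and 121 with a more negative one. Male 0.5 µg/L replicates 2 and 3 held RNA of female-high genes, at 21 and 20.8% of the female control level. The part of this RNA in these counts was not tested. Of the 17 called genes, DESeq2 called 6, the rises LOC111696339, LOC111708628, LOC111711903, LOC111714068 and LOC111702875 and the fall LOC111706298. LOC111708628 differed most clearly among the rises (interaction 2.30 on the log2 scale, DESeq2 adjusted p = 1.18e-05), with 7.82, 8.96 and 6.33 CPM in females at 0.5 µg/L and 5.24, 6.103 and 6.05 CPM at 50 µg/L. LOC111706298 had an interaction of -1.81 (DESeq2 adjusted p = 6.32e-05), with 21.6, 18.5 and 17.6 CPM in females at 0.5 µg/L and 14.8, 16.4 and 14.7 CPM at 50 µg/L. None of the 7 falls with a flow cell difference of at least 2-fold was called for a difference between the sexes. Their log2 fold changes in females lay between -1.01 (LOC111717198) and -3.03 (LOC111711716), and none of them passed the test in females, where the lowest of the 7 adjusted p was 0.937.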

How the data were processed

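The authors deposited raw read counts per gene, after trimming with Trimmomatic, alignment to the assembly Eaff_2.0 by STAR and featureCounts counting (versions not given in the sources used here), in 1 table of 18 columns, each matched to 1 library, and 23728 genes. For the 9 male libraries a model was fitted by edgeR 4.0.16 under R 4.3.3 (default filterByExpr filter, TMM factors, quasi-likelihood test with robust estimation), and 50 was contrasted with 0.5 µg/L. Genes were called at an adjusted p of at most 0.05 with a log2 fold change of 1 or more in size. DESeq2 1.42.0, the likelihood ratio test and other settings were alternatives, and the steps were tested on simulated data. Depth ranged from 3882407 to 8660828 counts in the 6 libraries, and exact intervals of ratios cover counting error only. No 2 libraries of a group were copies of each other. The sources do not tie each pool to a separate exposure vessel, so that p-values measure the spread between these libraries.

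Female-high genes had at least 10 CPM in every female control and at most 1% of the female control mean in the lowest male control. Male-high genes had at least 10 CPM in every male control and at most 1% of the male control mean in the highest female control. The estimated female RNA of a library was the median ratio over the female-high genes times the female control mean. The flow cell difference used a pseudocount of 0.5 CPM. The kinds of flow cell and their read lengths come from the study's methods, which do not list the flow cell of each library. The flow cell of each library was assigned by the prefix of its column label in the counts.

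Named are the 17 called genes, up to 3 members per list with the smallest p (at least 1 CPM), up to 5 genes per direction called by DESeq2 alone with at least 5 CPM (lower ones only if the female control mean was not above 0.5 µg/L replicate 1), and 5 of the genes of interest, in all 69 genes, not all of which are described; 1 result is not reported here. Others were named after their values were seen, as members of a list. Gene names come from the tables of the study, whose values were not used. Names that matched a pattern by letters alone (such as neurotrypsin) were left out of lists. Comparison, members and lists were chosen with earlier results of these data known.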

Additional observations from a re-analysis of the deposited data

How the results depend on the processing

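The count of 17 genes (8 higher, 9 lower at 50 µg/L) was the same with RLE factors and was 29 (13 and 16) with no filter on low counts, 258 (119 and 139) by the likelihood ratio test, 387 (163 and 224) by DESeq2 and 309 (137 and 172) with only the 6 compared libraries fitted. After subtraction of the female RNA it was 161 (35 and 126), and with flow cell as a covariate, or with 0.5 µg/L replicate 1 alone, 0. With each replicate left out in turn it ranged from 0 to 31 (higher 0 to 20, lower 0 to 11). With the replicate number as a replicate block it was 405 (137 and 268), but same-numbered libraries of the 2 doses did not deviate together (correlations of 0.0079, -0.047 and 0.066), and replicate 1 at 0.5 µg/L correlated best with replicate 2 at 50 µg/L (0.063), so that the numbers were not taken to pair the samples. The count of genes that differ between the sexes, 0, was 89 by the likelihood ratio test and 136 by DESeq2, and 0 to 3 with a replicate left out. Among the named genes, 785 of their values over the alternatives kept direction and call, 116 were newly called, 118 were no longer called and 14 reversed. Against 0.5 µg/L replicate 1 alone LOC111704351 (0.30), LOC111694963 (0.11), LOC111697179 (0.10), LOC111698143 (0.32), LOC111700762 (0.34), LOC111713817 (0.17) and LOC111695973 (-0.20) reversed in log2 fold change. With flow cell as a covariate those that reversed were LOC111712963 (0.21), LOC111709138 (0.90), LOC111712203 (0.048), LOC111711716 (0.25), LOC111711095 (0.80), LOC111711799 (0.18) and LOC111700682 (2.71). The cause was not tested. LOC111700682 was nearly uncounted in females (0.364, 0.0689 and 0 CPM at 0.5 µg/L, and 0 in female controls). Its value of 2.71 thus rests on very few female counts. With a limit of 5% for female-high genes their level in 50 µg/L replicates 1, 2 and 3 was 0.657, 0.482 and 0.919%. Depth limits the weakest genes, such as LOC111703978 with 5 counts and LOC111712298 with 4 counts at 50 µg/L.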
